A study of Mus musculus with 11 samples.

Results

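Interferon-responding microglia were the 206 cells of 13411 gated microglia, among 66658 barcodes in the series, that carried transcripts of several interferon-stimulated genes at once. Quality limits of 500 or more detected genes and a mitochondrial share of no more than 10% of UMIs (unique molecular identifiers, each counting 1 captured RNA molecule) left 61625 barcodes. It was gated as a microglial cell when P2ry12, Cx3cr1, Tmem119 and Fcrls summed to at least 4 UMIs, the endothelial genes Cldn5 and Flt1 to at most 3, and the macrophage genes Mrc1 and Cd163 to 0. A microglial cell was called responding when Ifit1, Ifit2, Ifit3, Rsad2, Isg15 and Usp18 summed to at least 3 UMIs with at least 2 of the 6 genes detected. These 6 interferon genes and 4 microglia genes chose the cells, so their values in the cells are given as a description and without a test. The comparison cells were the 11459 microglia with a sum of 0.

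The study addressed CADASIL, a hereditary small vessel disease caused by NOTCH3 variants, and recorded single-cell transcriptomes of brain vascular and vessel-associated cells. Brains were digested to microvascular fragments, the fragments were captured with CD31 beads, redigested to single cells and run on the 10x Genomics platform. All 11 mice were untreated and carried a human NOTCH3 transgene beside their own Notch3 gene. In the 6 R182C-TgN3 mice the transgene held the R182C variant (the CADASIL model), and in the 5 WT-TgN3 control mice it did not. The R182C-TgN3 mice were 9 months old (mice 1 to 3; 1 and 3 female, 2 male) or 6 months old (mice 4 to 6; 4 male, 5 and 6 female). The WT-TgN3 mice were 6 months old (mice 1 to 3; 1 and 3 female, 2 male) or 9 months old (mice 4 and 5; 4 male, 5 female). Labels gave 4 batch dates, numbered here in order of date. Batches 1 and 2 held the 9-month mice, batches 3 and 4 the 6-month mice, and batch 2 a single R182C-TgN3 mouse, so age and batch cannot be told apart. No group lacked a transgene, and the cells were those that came down with CD31-captured fragments, not all microglia of the brain.

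Type I interferons bind a receptor made of IFNAR1 and IFNAR2, and the kinases JAK1 and TYK2 then phosphorylate transcription factors, STAT2 among them. Together with IRF9 these form a complex that binds the interferon-stimulated response element (ISRE) in the promoters of target genes and switches on proteins that block viral replication, sense nucleic acids, present antigen and attract leukocytes. Small groups of microglia with this programme are known from the ageing, injured and diseased mouse brain.

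The 6 genes that defined the cells encode antiviral effectors and their regulators. IFIT1, IFIT2 and IFIT3 bind foreign RNA or one another, RSAD2 (viperin) makes a chain-terminating nucleotide, ISG15 is a ubiquitin-like modifier, and USP18 removes ISG15 and restrains receptor signalling. In GRCm38 Ifit2 (chr19:34550694-34576419), Ifit3 (chr19:34583531-34588731) and Ifit1 (chr19:34640871-34650009) lie in 1 stretch of the plus strand, with Ifit3b between the last 2. The promoters of 4 of these genes are shown because they hold the ISRE core. Bst2, B2m and Bank1, chosen after their values were seen, are shown as genes outside the gate that rose or fell in the responding cells. Each sequence is the stretch from 170 to 21 bases before the gene start in RefSeq (build GRCm38.p6), 5′ to 3′ on the gene's strand. Capitals mark GAAANNGAAA, read on either strand and with overlapping matches kept.
Isg15 (chr4:156200839-156200988, minus strand): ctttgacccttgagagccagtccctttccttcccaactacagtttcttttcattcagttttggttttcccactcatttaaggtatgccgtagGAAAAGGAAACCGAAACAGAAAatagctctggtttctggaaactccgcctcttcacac
Ifit1 (chr19:34640719-34640868, plus strand): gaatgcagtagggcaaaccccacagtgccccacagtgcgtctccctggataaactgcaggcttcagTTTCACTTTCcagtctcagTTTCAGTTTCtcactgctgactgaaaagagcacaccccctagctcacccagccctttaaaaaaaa
Ifit3 (chr19:34583359-34583508, plus strand): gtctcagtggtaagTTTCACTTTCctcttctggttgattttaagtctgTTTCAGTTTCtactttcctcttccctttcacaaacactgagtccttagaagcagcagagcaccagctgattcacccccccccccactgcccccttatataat
Rsad2 (chr12:26456473-26456622, minus strand): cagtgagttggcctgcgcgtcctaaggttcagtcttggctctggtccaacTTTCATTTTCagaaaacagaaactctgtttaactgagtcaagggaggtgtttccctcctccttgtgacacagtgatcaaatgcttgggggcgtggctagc
Bst2 (chr8:71537493-71537642, minus strand): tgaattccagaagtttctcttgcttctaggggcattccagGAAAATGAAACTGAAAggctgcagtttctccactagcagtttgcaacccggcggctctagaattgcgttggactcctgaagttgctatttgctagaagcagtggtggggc
B2m (chr2:122147517-122147666, plus strand): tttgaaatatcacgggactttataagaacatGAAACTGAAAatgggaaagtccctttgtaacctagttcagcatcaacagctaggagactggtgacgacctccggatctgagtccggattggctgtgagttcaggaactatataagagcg
Bank1 (chr3:136326087-136326236, minus strand): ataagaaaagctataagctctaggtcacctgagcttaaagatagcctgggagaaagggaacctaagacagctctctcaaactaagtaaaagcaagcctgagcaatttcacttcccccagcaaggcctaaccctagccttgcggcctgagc

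The Isg15 promoter held 3 overlapping matches that start 78, 72 and 66 bases before the gene start, and the Ifit1 promoter held 2, at 104 and 85 bases, read on the opposite strand. Ifit3 had matches at 156 and 122 bases, Rsad2 at 120, Bst2 at 130 and 124, and B2m at 139. The Ifit2 windows and the Bank1 window held none, and no window was at hand for Usp18. Over all 32851 promoter windows of 300 bases (250 before to 50 after a gene start) 1131 held the motif, or 3.44%. A match describes the letters and was not tested for binding.

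Libraries held 3416 to 10430 barcodes and 17550806 to 64215050 UMIs each. Single responding cells were deeper than the comparison cells, with a median of 7192.5 UMIs against 4944, and their median mitochondrial share was 1.60% against 1.63%. A doublet score from simulated cell pairs passed its limit in 9 of the 206 responding cells and in 165 of the 11459 comparison cells. This is a larger share of the responding cells. In all 2538 barcode entries were found in more than 1 library, mostly among the 6-month libraries, and these included 4 responding cells and 214 gated microglia (1.60%). Leaving these out moved the counts of genes reported below from 347 to 343 and from 270 to 266.

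Most responding cells carried few UMIs of the gate genes. The sum was 3 in 67 cells, 4 or 5 in 48, 6 to 9 in 38 and at least 10 in 53, with a median of 5 and a highest value of 229. The 53 cells at the top held 67.5% of all gate UMIs. Only 13 cells had all 6 genes, and 88 had 2. Isg15 was detected in 84.5% of the responding cells, Ifit2 in 61.7%, Ifit3 in 57.8%, Usp18 in 48.5%, Ifit1 in 34.5% and Rsad2 in 28.2%. In the endothelial cells of the same libraries (29933 cells with at least 4 UMIs of Cldn5 and Flt1 and none of the microglia genes) these shares were 44.3%, 11.6%, 20.5%, 18.2%, 28.1% and 28.8%, at a median of 4731 UMIs. A single WT-TgN3 5 cell held 119 UMIs of Rsad2, which was 48.8% of the Rsad2 UMIs of all responding cells.

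The values of cells just inside and just outside the threshold are given as a description. At a sum of 3 the pooled cells held 36.6 CPM (UMIs of a gene per 1000000 UMIs of the summed cells) of Irf7 and 281.8 of Bst2. At a sum of 2 the 313 cells held 20.7 and 151.0 CPM, and at a sum of 0 the values were 2.77 and 86.2. The 97 cells with a sum of at least 3 from a single gene, which the rule leaves out, held 4.44 CPM of Irf7 and stood apart in Apoe (5379.9 CPM, against 1502 in the responding cells and 357 at a sum of 0) and in the MHC class II chaperone gene Cd74 (975, 436 and 164 CPM).

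The share of responding cells among gated microglia varied from mouse to mouse. In R182C-TgN3 mice 1 to 6 it was 1.26% (32 of 2535 cells; exact 95% Clopper-Pearson interval 0.865 to 1.78), 2.78% (23 of 827; 1.77 to 4.14), 1.18% (20 of 1701; 0.720 to 1.81), 1.33% (10 of 752; 0.639 to 2.43), 0.580% (3 of 517; 0.120 to 1.69) and 1.93% (21 of 1088; 1.20 to 2.94). In WT-TgN3 mice 1 to 5 it was 0.0963% (1 of 1038; 0.00244 to 0.536), 2.18% (14 of 642; 1.20 to 3.63), 1.09% (22 of 2013; 0.686 to 1.65), 1.20% (6 of 500; 0.442 to 2.59) and 3.00% (54 of 1798; 2.26 to 3.90). The lowest and the highest mouse were both WT-TgN3, and the range of the control mice enclosed that of the R182C-TgN3 mice. These intervals cover counting error only.

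**Figure D1:**
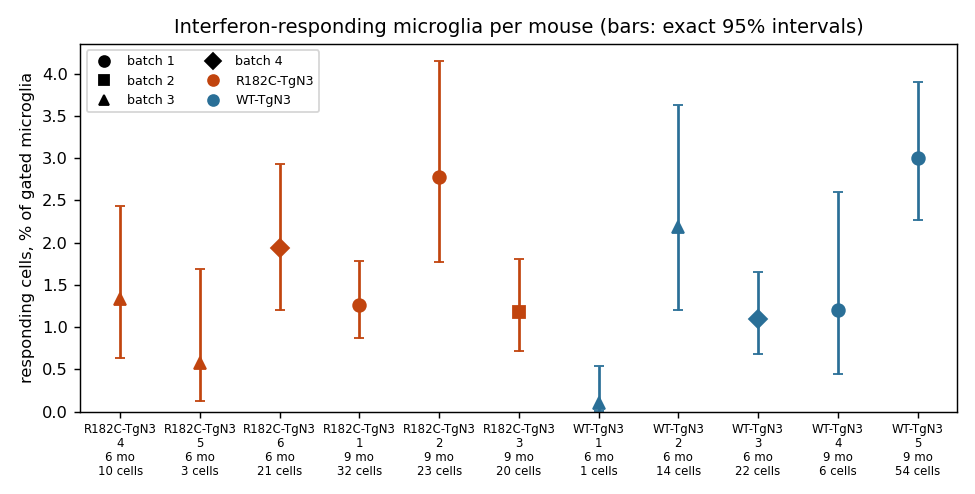
Share of interferon-responding cells among gated microglia in each mouse (vertical axis, percent, with exact 95% intervals), ordered by genotype and age, with the marker giving the batch. The WT-TgN3 mice run from 0.0963% to 3.00% and the R182C-TgN3 mice from 0.580% to 2.78%.

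The mean share was 1.51% ± 0.757 (SD, n = 6) in R182C-TgN3 and 1.51% ± 1.11 (n = 5) in WT-TgN3 mice, so that the genotypes differed by -0.00474 percentage points (95% interval -1.32 to 1.29; exact permutation test over mice, 2-sided, p = 0.987, adjusted over 3 factors 0.987). The direction was not fixed: with mice permuted within batches the mean difference was 0.191 percentage points (exact permutation p = 0.778). Within batch 1 the means were 2.02% and 2.10%, in batch 3 they were 0.955% and 1.14%, and in batch 4 single mice had 1.93% and 1.09%. The study's methods left a control library out of the microglia analysis for an unusual microglial landscape. The labels do not say which it was, so all control libraries were kept here. Without WT-TgN3 5 the difference was 0.367 percentage points (exact permutation test, p adjusted over 3 factors 0.514). Without WT-TgN3 1 it was -0.359 (exact permutation test, adjusted p 0.486). Leaving out microglia with any UMI of T and NK, B, neutrophil and monocyte or mural markers left 45 responding cells and mean shares of 0.794% ± 0.707 (SD, n = 6) and 0.923% ± 0.535 (n = 5).

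Neither age nor sex separated the mice. At 9 months the share was 1.88% ± 0.924 (n = 5) and at 6 months 1.20% ± 0.791 (n = 6), a difference of 0.683 percentage points (-0.531 to 1.90; exact permutation p = 0.208, adjusted 0.468). Female mice had 1.31% ± 0.942 (n = 7) and male mice 1.87% ± 0.746 (n = 4), a difference of -0.567 (-1.80 to 0.739; exact permutation p = 0.312, adjusted 0.468). With every cell thinned to 2000 UMIs, which left out 940 microglia of R182C-TgN3 and 593 of WT-TgN3 mice, the shares were 0.290% to 0.962% and 0 to 1.25%. The value of 0 was that of WT-TgN3 1, the mouse with the lowest share before thinning too, and 0 of 817 cells allows a share of up to 0.367% by the limit of 3 counts, or 0.450% as the exact 95% upper bound.

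The share was also set beside the interferon genes of endothelial cells in the same mice. Of the endothelial cells 20.8% to 39.7% per mouse passed the same sum, so the gate is far less selective in that cell type. Across the 11 mice the responding share and the summed endothelial CPM of the 6 genes had Pearson's r = 0.299 (permutation p = 0.370) and Spearman's rho = 0.218 (permutation p = 0.518). Without the 2 mice with the most distant endothelial level, R182C-TgN3 4 and 6, r was 0.270 (n = 9, permutation p = 0.476), and centred within batches it was 0.101 (n = 10, permutation p = 0.778). With the cells of both types thinned to 2000 UMIs r was larger, at 0.542 (n = 11, permutation p = 0.0834), with rho = 0.536 (permutation p = 0.0940). No relation passed the threshold in this 1 test.

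The gene comparison used the 8 mice with at least 10 responding cells (R182C-TgN3 1, 2, 3, 4 and 6, and WT-TgN3 2, 3 and 5). UMIs were summed per mouse and state and fitted with the mouse as a block (edgeR quasi-likelihood test, Benjamini-Hochberg). Of 8834 genes outside the gate, 347 were higher in the responding cells (3.93%) and 270 were lower (3.06%). The cells were chosen on genes of the same programme, so that related genes are higher in them is no independent sign of a response. Because a gene can also pass the expression filter only through the group in which it is high, counts are given below for the genes that passed on the comparison libraries alone. These were 8061 genes, of which 263 were higher and 268 lower. Of the 20 largest rises named below, only Ifi207, Ifitm3, Ifi27l2a and Slfn2 passed in this way. The other large rises, Ifit3b, Oasl2 and Irf7 among them, were tested only through the responding cells. So were some other named genes, such as Ube2l6, Ccl5 and Plac8. The p-values of all these genes are no independent support. The median log2 fold change over all genes was -0.04.

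The list named antiviral effectors held genes whose products block viral entry, translation or replication, and other genes besides, such as Ifi30, Ly6a and Sco1. Of its 63 genes 60 were in the annotation. The comparison libraries alone let 36 through, of which 32 rose and none fell. With the genes that passed through the responding cells, 46 were tested, 42 rose, and the median log2 fold change was 1.91. Ifitm3, which hinders virus entry at endosomes, was at 404, 816, 209, 735 and 345 CPM in the responding cells of the 5 R182C-TgN3 mice and at 387, 399.8 and 525 CPM in those of the 3 WT-TgN3 mice. The comparison cells of the same mice lay between 17.3 and 50.3 CPM, below every responding value, and the log2 fold change was 4.11 ± 0.21 (SE; edgeR adjusted p = 1.72e-16). Bst2 (tetherin), which holds budding virions at the cell surface, was at 455 to 637 CPM against 83.4 to 119 (log2 2.35 ± 0.10; edgeR adjusted p = 5.19e-18). The groups did not overlap for either gene. Ly6e, a surface protein that limits coronavirus fusion, rose by 1.15 ± 0.09 on the log2 scale, and the RING-domain gene Trim30a by 2.28 ± 0.11.

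The largest rise belonged to Ifit3b (chr19:34607970-34613401), at 71.4 ± 62.7 CPM (SD, n = 8) against 0.399 ± 0.287, a log2 fold change of 7.21 ± 0.51 (edgeR adjusted p = 7.00e-13). Ifit3b is a near-identical copy of the gate gene Ifit3, and reads may be split between them, so its value is uncertain and close to a gene of the rule. Oasl2, of the oligoadenylate synthetase family that senses double-stranded RNA, was at 28.7 to 197 CPM in the responding cells (median 136) and at 0.566 to 3.11 (median 2.48) in the comparison cells. Its log2 fold change was 5.69 ± 0.34 (edgeR adjusted p = 1.03e-14), and its relative Oas2 rose by 5.51 ± 0.51. Both genes passed the filter only through the responding cells. Slfn5, a Schlafen gene, was at 136 to 329 CPM against 2.79 to 10.2 (log2 5.25 ± 0.22), and Slfn2 rose by 3.32 ± 0.17. The 20 largest rises were picked among genes higher in all 8 mice. Others of them, as log2 fold changes, were Phf11a (4.80), Samd9l, which restricts poxviruses (4.04), Rtp4 (3.94), Ifi27l2a (3.81) and the exonuclease gene Isg20 (3.50). Paralogues of the Oas, Slfn and Ifi200 families share sequence, and how reads were divided between them was not tested.

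Genes of ISG15 conjugation also rose. Herc6, the mouse E3 ligase for ISG15, was at 190.0 ± 88.1 CPM against 35.6 ± 5.02 (log2 2.31 ± 0.19), Trim25 rose by 1.82 ± 0.24, and the E2 enzyme gene Ube2l6 by 2.32 ± 0.42. For the E1 enzyme gene Uba7 the log2 fold change was 0.77 ± 0.28 (edgeR adjusted p = 0.101). Of the 4 genes 3 rose, or 2 of the 3 that passed on the comparison libraries.

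**Figure D2:**
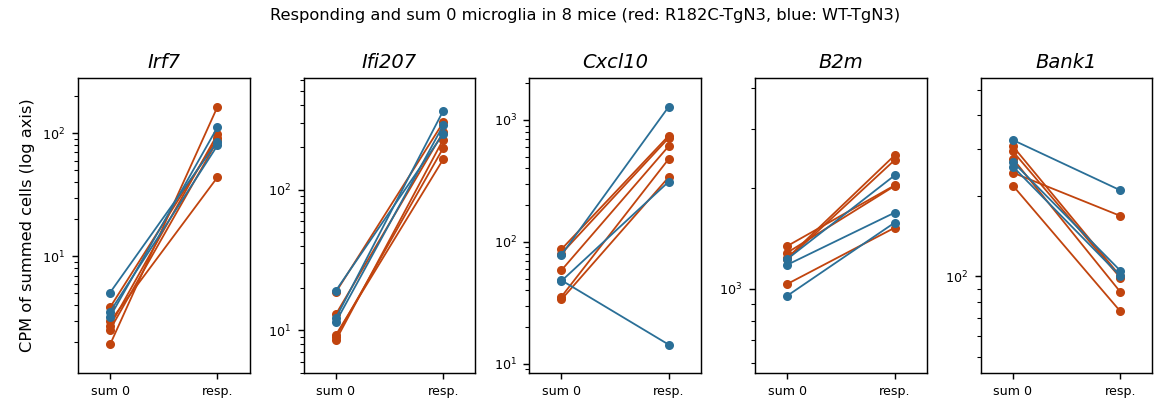
CPM of 5 genes (log axes) in the comparison cells with a sum of 0 and in the responding cells of 8 mice, each line joining the 2 states of 1 mouse, red for R182C-TgN3 and blue for WT-TgN3. Irf7, Ifi207 and B2m rise in every mouse, Cxcl10 in 7 of 8, and Bank1 falls in every mouse.

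Sensors of nucleic acid were split. In the list of 22 genes, 12 passed on the comparison libraries, of which 6 rose and none fell. With those that passed through the responding cells, 15 were tested and 9 rose (median log2 fold change 0.94). Ifi207, of the Ifi200 family of nucleic acid-binding proteins, was at 256, 301, 198, 227 and 164 CPM in responding cells of the R182C-TgN3 mice and at 287, 249.9 and 364 in those of the WT-TgN3 mice. In the comparison cells it was at 8.49 to 19.1 CPM, and the log2 fold change was 4.30 ± 0.17 (edgeR adjusted p = 1.59e-19). Every responding value was above every comparison value. Ifi204 (4.43 ± 0.18), Ifi206 (4.99 ± 0.41), Ifi213 (4.98 ± 0.41), Ifi209 (4.24 ± 0.30) and the Z-nucleic acid sensor gene Zbp1 (5.23 ± 0.42) were among the 20 largest rises, as log2 fold changes. Not all sensors followed. Aim2, the inflammasome DNA sensor gene, was at 388 ± 51.1 CPM against 353 ± 43.5 (log2 0.06 ± 0.10; edgeR adjusted p = 0.860). Tmem173 (STING) had a log2 fold change of -0.20 ± 0.14 (edgeR adjusted p = 0.513) and the endosomal RNA receptor gene Tlr7 one of -0.07 ± 0.15 (edgeR adjusted p = 0.882).

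Of the 14 transcription factor genes 13 were tested. Irf7, which amplifies type I interferon production, was at 44.1, 91.8, 165, 87.5 and 98.7 CPM in the R182C-TgN3 mice and at 86.0, 80.0 and 112 in the WT-TgN3 mice. In the comparison cells it was at 1.93 to 5.09 CPM (log2 4.79 ± 0.33; edgeR adjusted p = 4.12e-13), and it passed the filter only through the responding cells. Its counts were low, with 121 UMIs over the responding cells of these mice. The other list members named here for having passed the test were chosen after their values were seen. Of the ISRE-binding complex, Stat2 rose by 3.26 ± 0.22 and Irf9 by 1.65 ± 0.20 on the log2 scale. Irf1 (0.78 ± 0.18) and Etv6 (0.34 ± 0.10) rose as well, and Stat3, which relays cytokine signals, fell by 0.35 ± 0.11 (edgeR adjusted p = 0.0375). The myeloid factor genes Irf8 (0.13 ± 0.10; edgeR adjusted p = 0.553) and Nfkb1 (0.19 ± 0.09; edgeR adjusted p = 0.276) did not pass.

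The receptor genes showed no such difference. All 8 tested genes of the ligand and receptor list encode receptors or kinases, and all missed the threshold, with a median log2 fold change of -0.07. No ligand gene was expressed enough to test. The log2 fold changes were -0.10 ± 0.21 for Ifnar1, 0.04 ± 0.12 for Ifnar2, -0.20 ± 0.11 for Ifngr1, 0.06 ± 0.15 for Ifngr2 and -0.06 ± 0.13 for Jak1. These values, with their errors, do not show that the levels were equal. Ifnb1, which encodes interferon beta and could not be tested, had 19 UMIs in 4 of the 206 responding cells, 8 of them in a single R182C-TgN3 1 cell. That is 1.94% of the responding cells, against 0.122% of the comparison cells. Among feedback inhibitors Adar, an RNA-editing enzyme gene with an interferon-driven isoform, rose by 1.76 ± 0.24 on the log2 scale, whereas Socs3 (0.36 ± 0.13; edgeR adjusted p = 0.0936), Pias1 (-0.32 ± 0.11; 0.0907) and Ptpn6 (0.26 ± 0.14; 0.323) did not pass.

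Interferon-inducible GTPases guard against intracellular pathogens. Few were expressed enough to test: 4 of 15 passed on the comparison libraries and all 4 rose, and 6 of 7 rose with the others (median log2 fold change 1.44). Irgm1 was at 45.9 to 179.9 CPM in the responding cells (median 102) and at 12.3 to 21.3 in the comparison cells (median 15.6), without overlap. Its log2 fold change was 2.53 ± 0.23 (edgeR adjusted p = 4.44e-10), and those of Igtp, Irgm2 and Gbp7 were 1.66 ± 0.27, 1.44 ± 0.26 and 1.23 ± 0.21.

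MHC class I genes, which present antigen to CD8 T cells, rose nearly throughout. Of the 19 genes 18 passed on the comparison libraries, of which 15 rose, and 16 of all 19 rose with a median log2 fold change of 0.86. B2m, the shared light chain, was at 1522 to 2507 CPM (median 2035) against 952 to 1342 (median 1225), with no overlap between groups. Its log2 fold change was 0.69 ± 0.08 (edgeR adjusted p = 2.47e-07), beside 0.72 ± 0.09 for H2-D1 and 0.68 ± 0.10 for H2-K1, the classical heavy chains, and 0.76 ± 0.12 for the immunoproteasome subunit gene Psmb8. Nlrc5, the transactivator of class I genes, was among the 20 largest rises with 3.29 ± 0.26. None of 6 tested MHC class II genes passed the test. Cd74 had a log2 fold change of 0.62 ± 0.23 (edgeR adjusted p = 0.112) and was higher in 4 of 8 mice, and H2-Ab1 one of 1.43 ± 0.52 (edgeR adjusted p = 0.0964), with an SD of 155 CPM around a mean of 78.7.

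**Figure D3:**
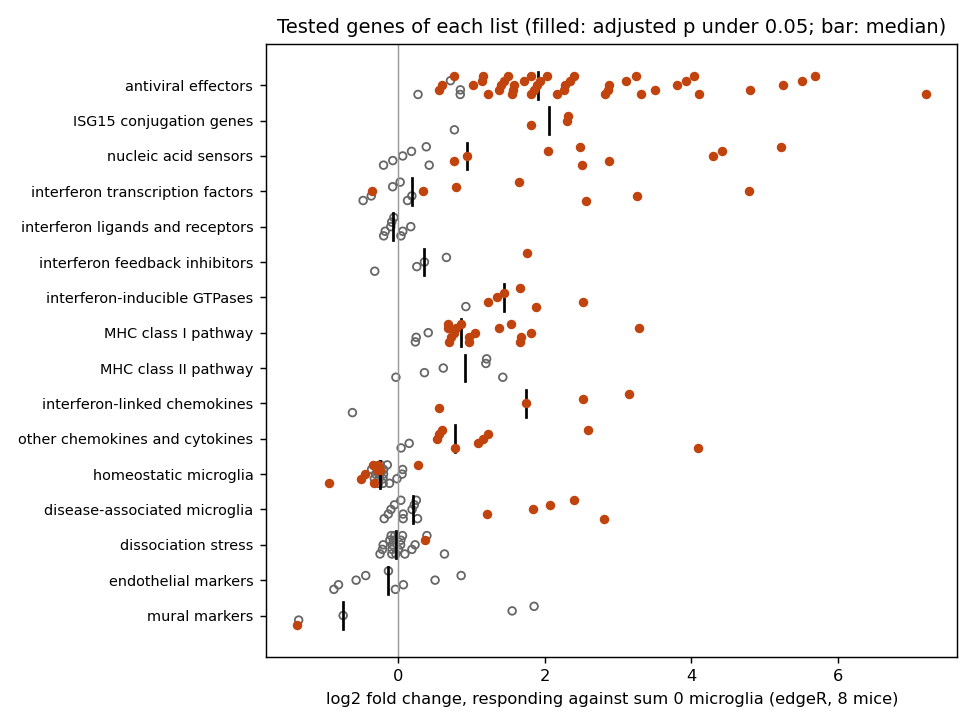
Log2 fold change (horizontal axis) of each tested gene between responding and sum 0 microglia, grouped by gene list, with filled points past an adjusted p of 0.05 and a bar at each list's median. The antiviral effectors (median 1.91) and the MHC class I genes (0.86) lie to the right of 0, and the homeostatic genes (-0.25) lie slightly to the left.

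Of the 8 interferon-linked chemokine genes 4 passed on the comparison libraries, of which 3 rose, and 4 of the 5 tested rose (median log2 fold change 1.75). Ccl12, a monocyte attractant, was at 809, 1214, 1197, 2799 and 3683 CPM in the R182C-TgN3 mice and at 1032, 1729 and 2069 in the WT-TgN3 mice, and at 313 to 664 CPM in the comparison cells. The groups did not overlap (log2 1.75 ± 0.11; edgeR adjusted p = 6.38e-14). Cxcl10, the T cell attractant that is a standard readout of interferon, was at 14.3 to 1289 CPM (median 546) against 33.7 to 87.1 (median 53.5). It was higher in 7 of 8 mice, while WT-TgN3 2 had 14.3 CPM, from a single UMI, in its responding cells and 48.3 in its comparison cells (log2 3.15 ± 0.19; edgeR adjusted p = 2.08e-14). Only 24.8% of the responding cells held any Cxcl10. Ccl2 rose by 0.56 ± 0.11 on the log2 scale and Ccl5 by 2.52 ± 0.66, the latter with 39.8% of its UMIs in a single R182C-TgN3 3 cell.

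Other cytokine genes moved with them. Of 12 genes 9 passed on the comparison libraries, of which 7 rose and none fell, and 9 of the 11 tested rose (median log2 fold change 0.77). Tnf was at 459.8 to 809 CPM (median 536) against 153 to 274 (median 250.5), without overlap (log2 1.23 ± 0.11; edgeR adjusted p = 4.34e-10). Ccl3 rose by 0.53 ± 0.08 and Ccl4 by 0.56 ± 0.09, from 2758 and 4265 CPM in the comparison cells, and both were higher in all 8 mice. Il1a, by contrast, had a log2 fold change of 0.04 ± 0.13 (edgeR adjusted p = 0.933). Cxcl2 rose by 4.10 ± 0.72 but was found in 8 responding cells and was higher in 5 of 8 mice. It passed the expression filter only through the responding cells. The 21 immediate-early and stress genes known to be induced by dissociation did not rise as a group: Nfkbia, the inhibitor of NF-kappaB, was the only one to pass (0.36 ± 0.09), and Fos (0.06 ± 0.08), Jun (-0.08 ± 0.07) and Egr1 (-0.05 ± 0.07) stayed below the threshold.

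The homeostatic genes of microglia were slightly lower. All 25 passed on the comparison libraries, 8 fell, 1 rose and the median log2 fold change was -0.25. The glucose and fructose transporter gene Slc2a5 fell by 0.95 ± 0.16 on the log2 scale, Gpr34 by 0.51 ± 0.10, Siglech by 0.45 ± 0.10 and the survival receptor gene Csf1r by 0.34 ± 0.08, and Bin1, Selplg and Tgfbr1 fell by 0.27 to 0.33. The cathepsin gene Ctss rose by 0.27 ± 0.07. The complement genes C1qa and C1qb differed by 0.05 ± 0.07 and 0.06 ± 0.07 (edgeR adjusted p = 0.782 and 0.735). As a check of the cell type on genes the rule did not use, Siglech, Gpr34, Csf1r and Selplg were at 760, 1051, 1395 and 995 CPM in the responding cells.

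Disease-associated microglia genes changed in a minority. Of 23 genes 14 passed on the comparison libraries and 3 of them rose, and 5 of the 16 tested rose: Apoe (1.21 ± 0.34), Clec7a (1.84 ± 0.33), Lilrb4a (2.08 ± 0.32), Lpl (2.40 ± 0.43) and the phagocytic receptor gene Axl (2.82 ± 0.37). Apoe was higher in 5 of 8 mice and Axl in all 8. Lpl and Axl passed the expression filter only through the responding cells, so their p-values are no independent support. The most abundant members did not pass the test, with log2 fold changes of 0.04 ± 0.09 for Tyrobp, -0.10 ± 0.08 for Cd9, 0.19 ± 0.08 for Ctsz and -0.19 ± 0.08 for Ctsd (edgeR adjusted p 0.892, 0.584, 0.181 and 0.149).

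The 10 largest falls named here were picked among genes lower in all 8 mice, with log2 fold changes of -2.05 to -1.21. Ttr and Enpp2, markers of the choroid plexus, had larger falls but were lower in 6 and 7 of 8 mice. Bank1, an adaptor of B cell receptor and Toll-like receptor signalling, was at 100.1, 168, 98.8, 87.5 and 74.0 CPM in the R182C-TgN3 mice and at 100.3, 209.9 and 105 in the WT-TgN3 mice. In the comparison cells it was at 219 to 324 CPM, so every mouse fell and the groups did not overlap (log2 -1.26 ± 0.15; edgeR adjusted p = 1.09e-07). The other 9 of the 10 largest falls were Sema4b, Tmem44, Mex3b, Lrrc39, Myo18b, D7Ertd443e, Epm2a, Tmem204 and Kcnk12. Sema4b, Tmem44, Mex3b and Lrrc39 rest on 4, 6, 6 and 8 UMIs in the responding cells, and the other 5 on 21 to 26. Of these 10 falls 1 was called among the 6 that could be tested after thinning to 2000 UMIs, and 6 were called by DESeq2.

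Fewer genes could be tested, and fewer were called, when cells were thinned or matched in UMIs. With cells thinned to 2000 UMIs 6108 genes could be tested over 7 mice, of which 139 were higher and 120 lower. Matching each responding cell to the comparison cell nearest in UMIs left 2210 genes, with 94 higher and 39 lower. All of the 20 largest rises that could still be tested were called in both: 9 of 9 after thinning and 6 of 6 after matching. Of the 347 higher genes 239 of the 241 tested after thinning and all 122 tested after matching kept their direction. In both fits the responding cells were those chosen at full depth, and the genes had been picked in the main fit of the same cells. These counts are therefore no independent support, and the part of depth in the choice of cells was not tested by them. Of the homeostatic genes 3 of 25 fell after thinning and 3 of 24 after matching, and the median log2 fold changes of the list were -0.24 and -0.13.

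The levels rose along the gate sum. From cells with a sum of 0 to those with at least 10, the summed CPM of the antiviral list went from 1867 to 11319, that of the GTPases from 118 to 1047, that of the interferon-linked chemokines from 1190.0 to 5522, that of the sensors from 913 to 2974 and that of the MHC class I genes from 2959.8 to 6231. The homeostatic list went from 53701 to 44502 CPM and the ligand and receptor list from 1446 to 1330.2. Irf7 was at 2.77, 7.36, 20.7, 36.6, 44.5, 89.9 and 162 CPM at sums of 0, 1, 2, 3, 4 to 5, 6 to 9 and at least 10. Cells were pooled over mice here, so these values carry no error between mice.

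**Figure D4:**
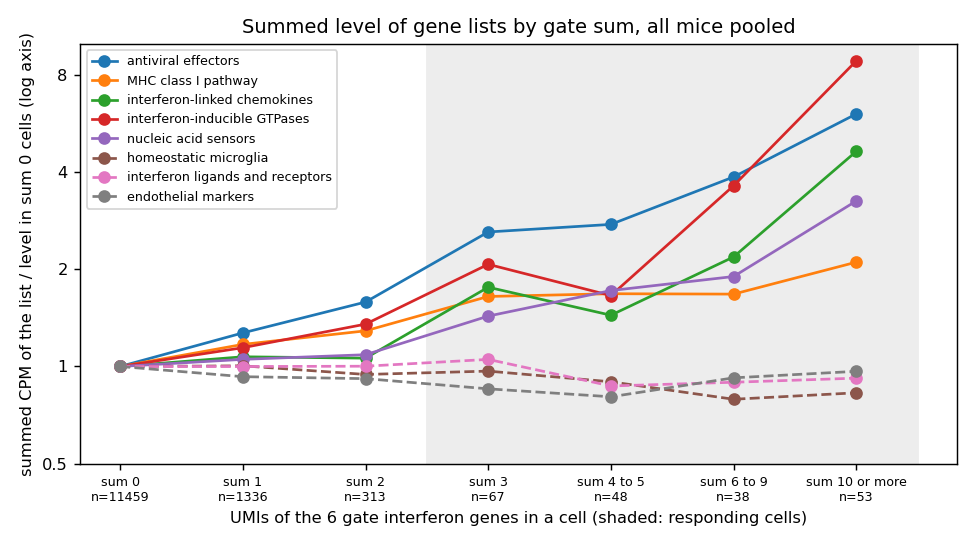
Summed CPM of 8 gene lists relative to cells with a sum of 0 (vertical log axis) by the number of gate UMIs in a cell, all mice pooled, with the shaded area holding the responding cells. The antiviral list rises from 1867 to 11319 CPM, and the homeostatic, receptor and endothelial lists end near or slightly under their starting level.

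Endothelial cells outnumbered microglia in these libraries and carried the gate genes at 484 CPM (1337 in the responding cells), so their markers were followed. The summed 10 endothelial markers were at 371 CPM in responding cells, 419 in comparison cells and 22106 in endothelial cells, and none of 9 tested markers passed the threshold. Cells with at least 3 UMIs of these markers made up 48.1% of the responding and 33.2% of the shallower comparison cells. Some of the genes that rose were at low levels in endothelial cells, and only such genes are given here. Ifi207 was at 0.80 CPM there and at 255 in the pooled responding cells, Ifi204 at 2.04 and 203, Ccl12 at 3.12 and 1510.2, and Cxcl10 at 19.4 and 427. The part of endothelial transcripts in the rises was not tested. Choroid plexus markers were at 1788 CPM in the comparison cells and at 150.1 in the responding cells, and Ttr (log2 -3.52 ± 0.34) and Enpp2 (-3.12 ± 0.38), the 2 that were tested, both fell. By cells the order was the opposite. At least 3 UMIs of these markers were in 10.7% of the responding and 6.20% of the comparison cells, and any Ttr in 48.1% and 39.5%. The fall in summed CPM is therefore not a fall in the share of cells with these transcripts. Ttr differed between mice, with an SD of 1734 CPM around a mean of 1726 in the comparison cells, and the part of choroid plexus transcripts in the other falls was not tested. Markers of mural cells were at 720 CPM in the cells with a sum of at least 10 and at 175 in comparison cells. A single R182C-TgN3 4 cell past the doublet limit held 187 of those 315 UMIs, and without it the level was 302 CPM. Of 5 tested mural markers none rose and Acta2 fell (-1.37 ± 0.43; edgeR adjusted p = 0.0481). Cells with at least 3 UMIs of mural markers nevertheless made up 3.40% of the responding cells (7 of 206) and 0.794% of the comparison cells. T and NK cell markers, perivascular macrophage markers and erythroid markers had no gene expressed enough to test, and 1, 2 and 0 of the 206 responding cells held at least 3 UMIs of them (0 of 206 allows up to 1.46%). These are 0.485%, 0.971% and 0%, against 0.0960%, 0.157% and 0.0785% of the comparison cells. For B cell markers the shares were 21.4% (44 cells) and 9.40%, for astrocyte markers 14.6% and 11.2%, and for oligodendrocyte markers 2.91% and 1.07%. No tested gene of these last 3 lists passed the threshold.

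Rises in a gene can rest on few cells, since 206 cells were summed. Of the 347 higher genes 46 had at least 25% of their responding UMIs in a single cell and 12 at least 50%, and for the lower genes these numbers were 8 and 2. Vcam1, an adhesion molecule gene among the 20 largest rises (3.26 ± 0.48), had 46.7% of its UMIs in a single R182C-TgN3 2 cell and was at 489.7 CPM in that mouse and at 11 to 411 in the others. For the other 19 rises this share was 21% or less. Plac8, the only tested neutrophil and monocyte marker, rose by 3.16 ± 0.59 but was higher in 5 of 8 mice and had 50% of its UMIs in a single WT-TgN3 5 cell. A total of 6 responding cells (2.91%) held at least 3 UMIs of that list, against 26 comparison cells (0.227%).

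**Figure D5:**
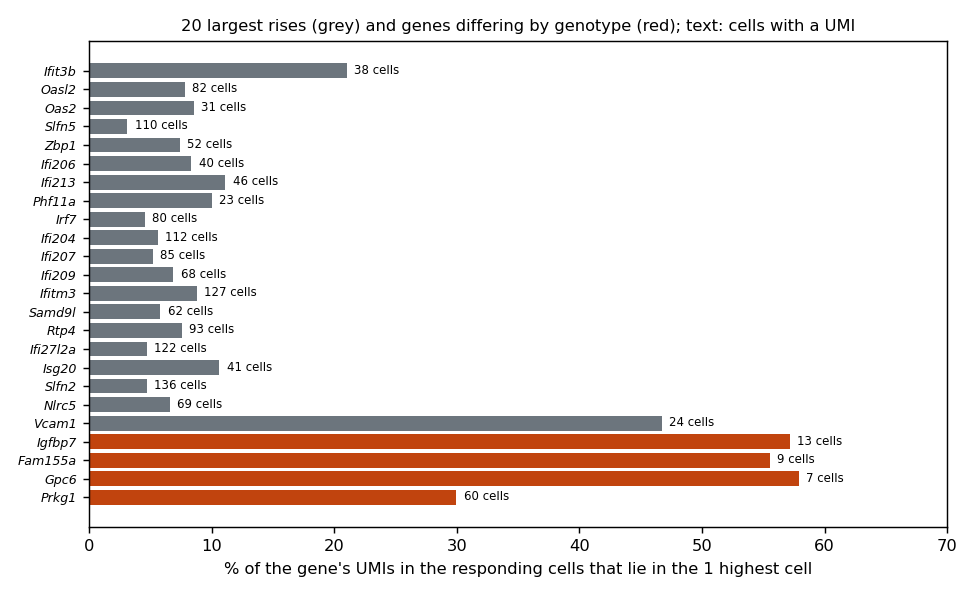
Percent of a gene's UMIs in the responding cells that lie in its single highest cell (horizontal axis), for the 20 largest rises (grey) and the 4 genes whose state difference differed by genotype (red), with the number of responding cells holding the gene beside each bar. Vcam1 (46.7%) and the 4 genotype genes (29.9% to 57.9%) lie to the right of the other rises.

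The promoter motif was more frequent among the genes that rose. Of the 281 higher genes with a RefSeq window 54 (19.2%) held GAAANNGAAA in 300 bases, against 271 of 7161 tested genes (3.78%) and 6 of 206 lower genes (2.91%). The cells were chosen on 6 interferon genes, and 4 of the 5 with a window hold this motif. Of the 347 higher genes, 263 passed the filter on the comparison libraries alone. The higher motif share is therefore no independent support for a response. Of the 20 largest rises 13 had a window and 7 of these held it, as did 21 of 48 antiviral effectors, 9 of 10 GTPases and 5 of 16 MHC class I genes. None of 8 windows of the largest falls, 10 of other cytokine genes or 16 of dissociation genes held it, which says only that these letters are not in those windows. Irf7, Oasl2 and Ccl12 rose without a match in their window.

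Within the responding cells the calls between genotypes depended on the fit. Of 2603 genes tested over 5 R182C-TgN3 and 3 WT-TgN3 mice 0 passed (0%; edgeR quasi-likelihood), with 106 at an unadjusted p under 0.05 and 1 called by DESeq2. With batch as a covariate 7 genes were called, and with the replicate numbers as a block, which left 4 mice, 51 of 3458 were. Of the antiviral list 32 genes were tested here, with a median log2 difference of 0.01 beside 0.00 over all genes. In all gated microglia, which needs no interferon threshold, 0 of 11218 genes passed over 11 mice (0%), with 113 at an unadjusted p under 0.05 and 0 called by DESeq2. Isg15 was at 29.5 ± 8.43 CPM (SD, n = 6) in R182C-TgN3 and 27.0 ± 9.29 (n = 5) in WT-TgN3 mice, Ifit2 at 9.58 ± 2.66 and 11.1 ± 5.46, Ifit3 at 7.85 ± 2.94 and 9.92 ± 7.74, and Usp18 at 6.15 ± 1.58 and 5.85 ± 2.53. Ifit1 was at 3.55 ± 1.57 and 3.54 ± 3.37, and Rsad2 at 2.61 ± 1.15 and 5.33 ± 6.35. The ranges of the genotypes overlapped for all 6 genes.

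The difference between states was also compared between genotypes. Of 10191 genes 4 passed (0.0393%; edgeR quasi-likelihood, Benjamini-Hochberg), and none of 57 antiviral or 19 MHC class I genes was among them. All 4 had a larger rise in R182C-TgN3 mice: Igfbp7, a secreted protein gene of vessels (difference of log2 fold changes 6.78 ± 1.14; edgeR adjusted p = 0.00277), Fam155a (5.11 ± 0.87; 0.00277), the glypican gene Gpc6 (4.76 ± 0.84; 0.00434) and the cGMP-dependent kinase gene Prkg1 (2.10 ± 0.42; 0.0229). These rest on few cells. A single R182C-TgN3 2 cell held 57.1%, 55.6%, 57.9% and 29.9% of their responding UMIs, and 6 cells from 5 mice, 3 of them past the doublet limit, held 94.9%, 97.5%, 92.8% and 49.2%. Igfbp7 had 8, 113, 4, 18 and 52 UMIs in the R182C-TgN3 mice and 0, 0 and 1 in the WT-TgN3 mice. DESeq2 called 0 of them.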

How the data were processed

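Cerebrovascular cells of 11 mice were captured with the 10x Genomics 3′ kit. The deposited matrices hold raw UMI counts per gene and barcode, which the authors made with Cell Ranger 7.0.0 on mm10 with the human NOTCH3 gene added (versions per the submitters' processing notes). Total counts per library were 17550806 to 64215050, and intervals and limits from counts cover counting error only. No cell annotation was used here, and cells were gated as given in the report. UMI counts were summed per mouse and state. Groups and batches came from the labels, and by the study's methods each library is 1 mouse. As the study's methods do, tests passed over Gm and Rik gene models and ribosomal or mitochondrial genes.

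Genes were tested with edgeR 4.0.16 (TMM, filterByExpr, quasi-likelihood, Benjamini-Hochberg, threshold 0.05) in R 4.3.3, and DESeq2 1.42.0 was an alternative. In the state comparison the filter lay at 7.23 CPM in at least 8 libraries, and fold changes of genes near 0 depend on the prior count. Shares were compared by exact 2-sided permutation over mice with intervals by inversion, in Python 3.11.15 with scipy 1.17.1. Tests were checked on simulated counts. For the state comparison 92.9% of 4-fold and 49.5% of 2-fold changes among 8719 genes were recovered. For the genotype comparison within responding cells these were 100% and 56.7%, and for the interaction 42.3% and 2.02%. The simulation gave all genes the same dispersion, with no mouse or batch effects and no single cells that dominate a gene. The rates hold for that setting and do not show that such changes would be found in the real libraries. Named genes are the 10 gate genes, the 20 largest rises and 10 largest falls that passed and went the same way in every mouse, up to 4 tested members per list with the highest mean CPM, and up to 5 rises and 5 falls per genotype comparison. Members, lists and tests were chosen with earlier results of these data known.

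Doublets were scored against simulated cell pairs at a rate of 0.8% per 1000 barcodes and were kept, with an alternative that left them out. Replicate numbers in the labels were checked for pairing by the correlation of deviations from the group means: for all gated microglia r was 0.231, 0.376, 0.438, -0.00793 and 0.147 over 5 pairs, so the numbers were not taken to pair the mice. Alternatives changed the gate, filters, scaling, depth, covariates and mice. The promoter search used RefSeq windows of GRCm38.p6, the patch release of the same build as mm10, and gene positions are from GENCODE vM21.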

Additional observations from a re-analysis of the deposited data

Results flagged for a closer look

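Among 46 groups of values examined for a sample far from the others, 5 had one, and chance gives about 1 in 20 such groups. In all gated microglia Ifit3 was at 13.7 CPM in R182C-TgN3 6, above the other R182C-TgN3 mice, and Rsad2 was at 0.443 CPM in R182C-TgN3 5, below them. WT-TgN3 5 stood above the other WT-TgN3 mice with 43.1 CPM of Isg15 and 16.6 CPM of Rsad2, and this mouse also had the highest responding share. In its responding cells the Ifi200-family gene Ifi209 was at 142 CPM, above the other 7 mice.

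For 4 genes the difference between responding and comparison cells itself differed between genotypes by the interaction test (edgeR quasi-likelihood), as a difference of log2 fold changes: Igfbp7 by 6.78, Fam155a by 5.11, Gpc6 by 4.76 and Prkg1 by 2.10. As given in the report, most UMIs of the first 3 lie in 6 cells, 3 of which passed the doublet limit, and the part of doublets in these values was not tested beyond leaving them out. That also took R182C-TgN3 4 out of the fit, and 16 genes were called, against 6 without that mouse alone.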

How the results depend on the processing

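The 20 largest rises, picked in the main fit of largely the same cells, were called in every alternative in which they could be tested, except 1 gene with WT-TgN3 mice alone. The 10 largest falls kept their direction wherever tested. Genes higher in responding cells numbered 347; the count was 533 with no filter on low counts, 139 after thinning, 94 with the nearest comparison cells and 157 in WT-TgN3 mice alone, and 257 to 344 leaving out each mouse. Genes lower numbered 270, and 168 with DESeq2, 906 with no filter, 120 after thinning, 39 with the nearest cells, 156 and 21 in mice of the R182C-TgN3 or WT-TgN3 genotype alone, and 166 to 375 leaving out each mouse (166 without R182C-TgN3 2, 170 without WT-TgN3 5). Higher against lower was 324 to 168 with DESeq2, 385 to 191 with its size factors, 452 to 321 with all genes and 355 to 373 at a sum of at least 5. Igfbp7 reversed to -3.61 in WT-TgN3 mice alone.

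The difference in share by genotype changed sign to 0.0468 percentage points at a sum of at least 2, 0.212 at a sum of at least 5, 0.101 with at least 1000 genes, 0.0109 after thinning, 0.191 within batches and 0.157 at 6 months, and ran from -0.359 to 0.367 leaving out each mouse (p 0.486 to 0.998). With the replicate numbers as a block (5 pairs) it was 0.0621 (exact permutation p = 0.9375). By sex it reversed to 0.0742 after thinning and ran from -0.850 to -0.264 leaving out each mouse. By age it ran from 0.403 to 0.879. None of these passed the threshold.

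Genes differing by genotype in responding cells numbered 0 and became 1 with DESeq2, 133 with no filter, 1 without doublet scores (7 mice), 7 with batch as a covariate and 51 with the replicate block (2 pairs, 4 mice), and 0 to 5 leaving out each mouse. In all microglia 0 were called in 20 of 20 alternatives. The 4 interaction genes became 0 with DESeq2, 7 with its size factors, 27 with no filter, 9 with all genes and 16 without doublet scores (which also left out R182C-TgN3 4; 6 without that mouse alone), and 2 to 15 leaving out each mouse. The causes were not tested. Leaving out cells with other types' UMIs took the responding cells from 206 to 45 and the mean shares from 1.51% to 0.794% in R182C-TgN3 and from 1.51% to 0.923% in WT-TgN3 mice, with a difference of -0.129 percentage points, and its gene fit had too few mice and was not run. With 206 cells, genes under 7.23 CPM were not tested, and the interval of the genotype difference in share reaches from -1.32 to 1.29 percentage points.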

Other observations

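Beyond the interferon lists, single cells carried other programmes. The 10 proliferation genes summed to 353 CPM in the cells with a gate sum of 3 and to 142 at 10 or more, against 37.0 CPM in the comparison cells. Of the 164 proliferation UMIs at a sum of 3, 154 lay in a single R182C-TgN3 1 cell past the doublet limit, and without it the level was 22.7 CPM. At a sum of 10 or more 45 of 62 lay in a single WT-TgN3 5 cell, and without it the level was 40.1 CPM. Only Stmn1, a microtubule regulator gene, could be tested (log2 1.03 ± 0.41; edgeR adjusted p = 0.143, higher in 6 of 8 mice). T and NK cell markers were at 169.9 CPM in the cells with a sum of 3, with 74 of 79 UMIs in a single R182C-TgN3 1 cell past the doublet limit, and at 11.4 CPM without it. Spp1, a secreted matrix protein gene, was at 549 CPM at a sum of 4 to 5, where all 210 UMIs lay in a single R182C-TgN3 1 cell, and at 5.55 in the comparison cells. These pooled values have no error between mice, and none was tested except Stmn1.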
